A study of Mus musculus with 15 samples.

Results

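The comparison set 6 liver tumours of Mdr2-knockout mice against 3 livers of heterozygous mice, 9 of the 15 arrays in the series. The tumours came from 4 homozygous Mdr2-KO mice: mouse 3 and mouse 4 gave 1 tumour each, mouse 5 gave tumours 5-1 and 5-2, and mouse 6 gave tumours 6-1 and 6-2. The controls were whole liver of 3 Mdr2-KO heterozygous mice, numbered 1 to 3, which carry 1 disrupted copy of the gene, so no animal here has both copies intact. All animals were 16 months old, and strain and sex are not given in the sources used here. The other 6 arrays hold non-tumorous liver of knockout mice 1 to 6 and are named below only for their own levels. Genes were divided into those in which all 6 tumours lay beyond all 3 controls, called shared, and those displaced in 2 or 3 tumours only.

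Mdr2, whose current symbol is Abcb4, is a transporter of the canalicular membrane of hepatocytes, through which phosphatidylcholine reaches the bile. Phospholipid shields the bile ducts from bile salts, and mice without the transporter develop chronic cholangitis and portal inflammation, and liver tumours late in life. The comparison with heterozygous liver therefore holds both the tumour and the long-diseased knockout liver around it, and these cannot be told apart with these 9 arrays.

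Total RNA of frozen tissue had been hybridised to Affymetrix mouse arrays with 22690 probe sets, and the values are MAS5 signals, a linear brightness per probe set. Levels below are these signals. Changes are differences on the log2 scale after a constant of 9.16 was added, which makes the change of a dim gene smaller than its ratio of signals. Each log2 change is given ± its standard error (SE), and n is 6 tumours and 3 controls throughout. The median signal per array lay between 35.8 and 51.2, and 9593 genes were tested. A gene was called at a limma adjusted p under 0.05, and "dim" means that no array of a group had the gene above its 40th percentile. Tissue of tumours and controls carried hepatocyte RNA: albumin (Alb) had signals of 13290 to 18314 in the tumours and 18671 to 20113 in the controls. The 3' to 5' ratio of the actin control probe sets, which is higher in degraded RNA, was 2.55 to 3.37 in the controls and 1.51 to 2.06 in the tumours. The ranges did not overlap, so RNA quality and group cannot be told apart here. With the log2 of this ratio as a covariate limma called 0 genes, with 435 at an unadjusted p under 0.05, and the medians of 15 of the 31 gene lists used below changed sign. Among the 15 were genes higher in male liver (-1.95 to 0.46), P450s (-0.80 to 0.44) and pericentral targets (-0.93 to 0.57). Matrix genes (0.69 to -0.66), oncofetal genes (1.29 to -0.96) and macrophage markers (0.93 to -0.50) turned as well. Among the lists that kept their sign was S phase and mitosis (1.02 to 0.71). In bulk tissue, fewer cells of a type and less RNA per cell cannot be told apart either.

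Abcb4 itself, the targeted gene, had signals of 1006, 779 and 886 in the controls. In the tumours the lowest signal was 123 (tumour 5-1), the median 219 and the highest 681 (tumour 4). All 6 tumours lay below all 3 controls, and tumour 4 was close to them. The log2 change was -1.69 ± 0.43 SE and the gene was not called (limma, adjusted p = 0.0822). Without tumour 4 the change was -1.99 and the gene was called (adjusted p = 0.0209). It has a single probe set here, which may lie outside the stretch that the knockout disrupts, so these values may not check the genotype.

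In all, 123 of 9593 genes (1.28%) were called: 89 were higher in the tumours (0.928%) and 34 were lower (0.354%). Of these, 87 were at least 2-fold higher and 31 at least 2-fold lower. The size of the change had a median of 1.84 on the log2 scale and ranged from 0.96 to 6.69. Each of the 123 called genes separated all tumours from all controls, but the split and the test use the same values, so this is a description. Without the test, all 6 tumours lay above all 3 controls in 508 genes (5.3%) and below them in 586 genes (6.11%). Their median log2 changes were 1.01 and -0.74. Over all genes the median SD was 0.43 log2 units in the tumours and 0.25 in the controls. Limma called 17, 21 and 11 genes without control 1, 2 or 3.

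**Figure D1:**
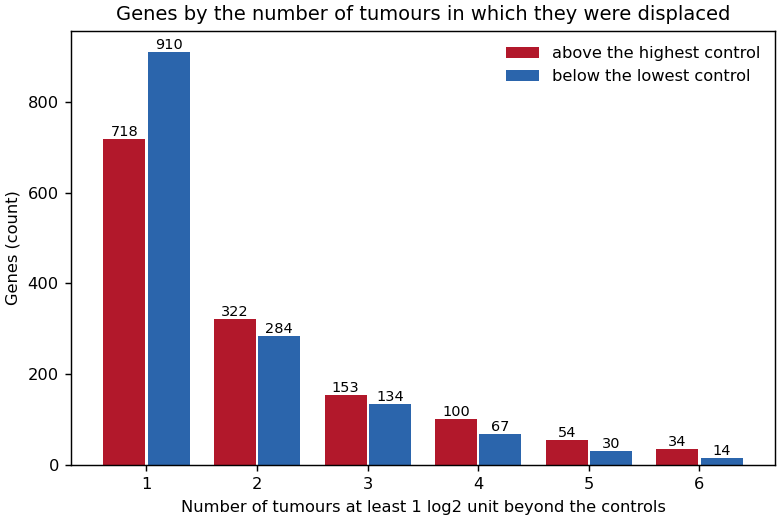
Number of genes (vertical axis) displaced by at least 1 log2 unit beyond the nearest control in exactly 1 to 6 tumours (horizontal axis), red for above the highest control and blue for below the lowest. The bars fall from 718 genes higher and 910 lower in a single tumour to 34 higher and 14 lower in all 6.

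A stricter view counts the tumours that lay at least 1 log2 unit, a factor of 2, beyond the nearest control. Only 34 genes were that much higher in every tumour and 14 that much lower, of which limma called 32 and 9. The plot of genes by number of tumours shows how steeply the counts fell: 718 genes were higher in 1 tumour, 322 in 2, 153 in 3, 100 in 4 and 54 in 5. On the lower side the counts were 910, 284, 134, 67 and 30. Tumours differed in how many genes they displaced. Tumour 5-1 had 811 genes higher and 585 lower, and tumour 6-1, with the fewest, had 188 and 140. Among the 89 called rises, tumour 5-1 was the farthest from the controls in 32 genes and tumour 6-1 in 0, while tumour 6-1 was the nearest in 35. Among the 34 called falls, tumour 6-1 was the nearest in 22.

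Anxa5, annexin A5, a protein that binds phosphatidylserine on membranes, had the smallest adjusted p. Its signals were 62.4, 26.3 and 31.9 in the controls and 859 to 1921 in the tumours, with a median of 1064. The groups were far apart and the 6 tumours stayed close together. The log2 change was 4.58 ± 0.30 SE, 23.8-fold (limma, adjusted p = 2.65e-05). The non-tumorous knockout livers had signals of 727 to 1255, 5 of 6 in the range of the tumours and 1 below every tumour. Ly6d, a small GPI-anchored surface protein of the Ly6 family, had the largest rise. Its signals were 21.5, 2.5 and 4.6 in the controls, where it was dim, and 239 (tumour 5-1) to 3340.3 (tumour 6-2) in the tumours, median 1197. The log2 change was 5.90 ± 0.73 SE (limma, adjusted p = 0.00425). Here the tumours were themselves spread over a wide range, and the non-tumorous livers lay between 87.4 and 581.

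Some genes of lipid uptake rose in every tumour. Cd36, a receptor that takes up fatty acids and oxidised lipoproteins, had signals of 51.4, 56.5 and 85.2 in the controls and 771 to 1577 in the tumours, median 1084. The change was 3.90 ± 0.28 SE on the log2 scale (limma, adjusted p = 4.38e-05), and its other probe sets gave 3.55 and 2.24. In the non-tumorous livers the signal was 148 to 742, below every tumour. Lpl, lipoprotein lipase, which releases fatty acids from triglyceride-rich particles, rose from 71.3 to 85.5 in the controls to 268 (tumour 6-2) to 2404 (tumour 4), a log2 change of 3.26 ± 0.57 SE (adjusted p = 0.0231). Of 33 tested genes of fatty acid uptake, synthesis and lipid droplets these 2 were called higher and 0 lower. The list had a median log2 change of 0.31 (0.27 without tumour 5-2, 0.54 without tumour 3) against -0.03 over all genes. By tumour the median ran from -0.46 in tumour 5-1 to 0.87 in tumour 6-2. In tumour 5-1, 18 of the 33 lay below all controls and 11 above. Cidec, a lipid droplet protein, and Pnpla3, a droplet lipase, were at least 1 log2 unit above the controls in every tumour but were not called (2.70 ± 0.80 SE, adjusted p = 0.129, and 2.26 ± 0.60 SE, adjusted p = 0.0943).

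**Figure D2:**
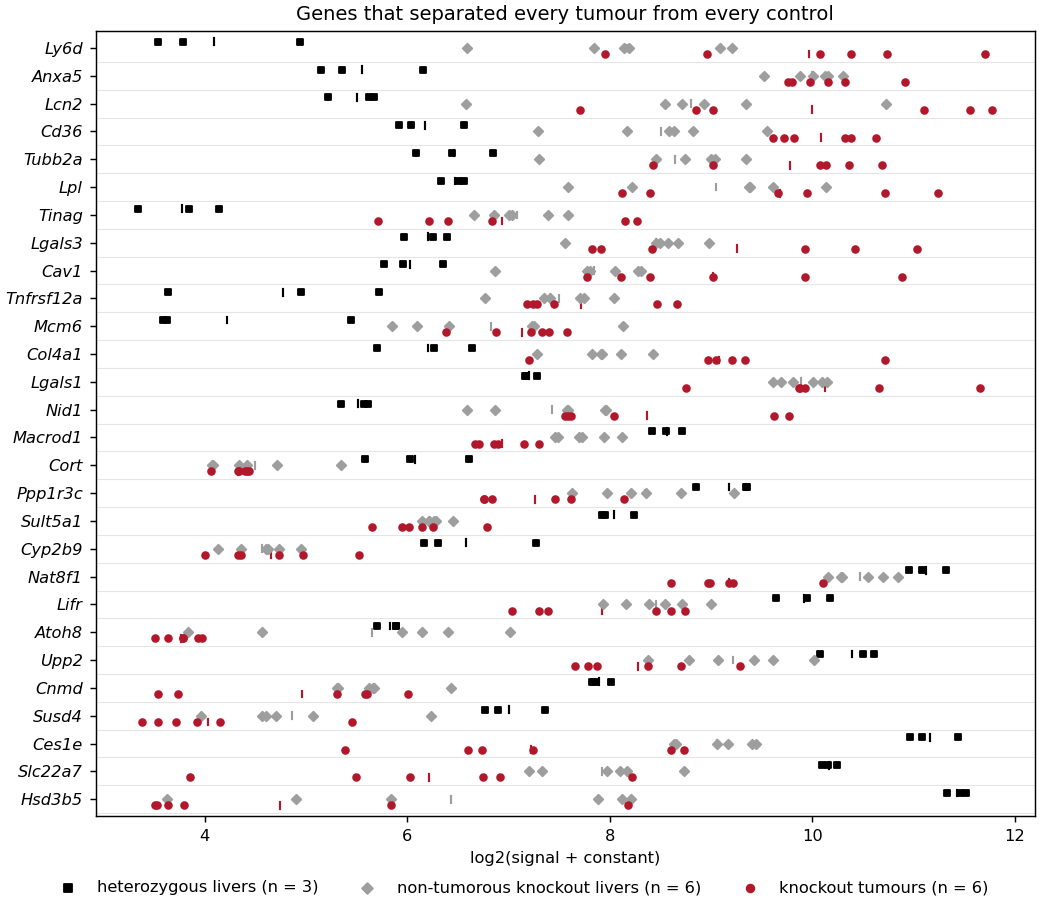
Signal on a log2 scale after the constant of 9.16 was added (horizontal axis) for the 14 largest called rises and the 14 largest called falls, from Ly6d at 5.90 to Hsd3b5 at -6.69. Each point is 1 sample: black squares are the 3 heterozygous livers, grey diamonds the 6 non-tumorous knockout livers and red circles the 6 tumours, and short bars are group means. No red circle overlaps the black squares of its gene, while grey diamonds often lie among the red.

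To show the sequence just upstream of the strongest movers, promoters are given for the largest rises and falls among the named shared genes that have one in the RefSeq table of GRCm38.p6; Ly6d and Slc22a7 had no entry, and Ces1e, on chromosome 8, is not shown. Each is the 250 bases before the start site, 5′ to 3′ on the strand of the gene. Anxa5 is at chr3:36475888-36476137 (minus strand), Lcn2 at chr2:32387740-32387989 (minus), Hsd3b5 at chr3:98645535-98645784 (minus) and Susd4 at chr1:182763966-182764215 (plus, the first of 2 starts listed). Capitals mark the match to any of 8 short motifs searched, and only Lcn2 held one, a C/EBP core.
Anxa5: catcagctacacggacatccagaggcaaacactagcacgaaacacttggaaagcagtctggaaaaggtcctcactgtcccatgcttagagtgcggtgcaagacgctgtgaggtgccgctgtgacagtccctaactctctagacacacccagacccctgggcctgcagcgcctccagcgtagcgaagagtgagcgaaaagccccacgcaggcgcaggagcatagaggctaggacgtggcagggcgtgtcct
Lcn2: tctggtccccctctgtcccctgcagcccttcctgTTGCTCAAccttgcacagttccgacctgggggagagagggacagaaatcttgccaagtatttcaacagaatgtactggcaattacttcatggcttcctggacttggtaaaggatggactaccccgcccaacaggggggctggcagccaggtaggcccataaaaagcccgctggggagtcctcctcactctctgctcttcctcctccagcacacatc
Hsd3b5: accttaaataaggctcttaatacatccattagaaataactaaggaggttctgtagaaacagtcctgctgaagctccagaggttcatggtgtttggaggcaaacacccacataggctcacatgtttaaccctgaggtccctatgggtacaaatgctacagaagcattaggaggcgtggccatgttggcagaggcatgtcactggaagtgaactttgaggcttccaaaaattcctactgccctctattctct
Susd4: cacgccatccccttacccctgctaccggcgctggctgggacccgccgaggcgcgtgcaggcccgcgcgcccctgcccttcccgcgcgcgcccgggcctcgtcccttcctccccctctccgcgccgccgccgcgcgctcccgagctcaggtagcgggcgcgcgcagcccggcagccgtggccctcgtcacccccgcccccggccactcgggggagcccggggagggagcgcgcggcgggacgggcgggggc
The motifs, searched on both strands, were the TATA box TATAAA, the box CCAAT, the AP-1 site TGANTCA, the STAT5 site TTCNNNGAA, the antioxidant response element TGACNNNGC, the E2F site TTTNGCGC, the C/EBP core TTGCNNAA and the part GTTAAT of an HNF1 site, and none contains another. Promoters were matched for 71 of the called rises and 29 of the called falls. For each motif the share is given beside those of all 27025 promoters and of the 7753 promoters of tested genes, the only ones that could be called. TTGCNNAA was in 14.1% of the former and 3.45% of the latter, against 10.8% of all and 8.77% of tested. TATAAA was in 14.1% of the rises and 0 of the falls, against 14.2% and 8.24%. CCAAT was in 42.3% and 34.5%, against 37.9% and 38.0%. TGACNNNGC was in 16.9% and 6.90%, against 12.5% and 14.4%. TGANTCA was in 7.04% and 10.3%, against 7.93% and 5.701%. TTCNNNGAA was in 7.04% and 6.90%, against 8.47% and 6.95%. TTTNGCGC was in 4.23% and 0, against 1.38% and 2.58%, and GTTAAT in 4.23% and 10.3%, against 7.20% and 4.63%. These shares rest on 71 and 29 promoters and a match of letters is not a binding site.

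Genes of inflammation and iron binding included some of the widest ranges. Lcn2, lipocalin 2, an acute-phase protein that sequesters bacterial iron carriers, had signals of 28.1, 40.2 and 41.8 in the controls. In the tumours it ranged from 200 (tumour 4) to 3492 (tumour 5-1), with a median of 1349. The log2 change was 4.46 ± 0.86 SE (limma, adjusted p = 0.0317). Tumours 3, 5-1 and 6-2 were all above 2000 and the other tumours were at or below 510. Lcn2 was the only called member of 27 acute-phase genes (median 0.31, but 0.07 without tumour 3 and 0.12 without tumour 5-1) and of 10 neutrophil markers (median -0.06, turning to 0.15 without tumour 4). The sums of signals of the neutrophil markers were 314 to 3764 in the tumours, largely Lcn2 itself, and 278 to 423 in the controls. Tnfrsf12a, the receptor for the cytokine TWEAK, had signals of 21.8, 43.6 and 3.3 in the controls and 137 to 398 in the tumours (2.97 ± 0.48 SE, adjusted p = 0.0141). It was the only called gene of 24 TNF family, chemokine and NF-kappaB genes, whose median was 0.58. Usp18, which removes ISG15 from proteins and dampens interferon signalling (2.24 ± 0.27 SE, adjusted p = 0.00333), and Ifi27l2b, an interferon-inducible mitochondrial protein (2.52 ± 0.30 SE, adjusted p = 0.00332), were the called members of 27 interferon-stimulated genes, whose median was 0.54.

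Galectins 1 and 3 and the macrophage gene Cd68 were higher in every tumour. Lgals1, galectin 1, a galactoside-binding lectin, rose from 134 to 147 in the controls to 421 (tumour 4) to 3225 (tumour 6-2) in the tumours, a log2 change of 2.86 ± 0.49 SE (limma, adjusted p = 0.0219). Lgals3, galectin 3, which macrophages and injured epithelia express, rose from 53.4 to 75.1 in the controls to 217 (tumour 6-1) to 2081 (tumour 5-1), a change of 3.06 ± 0.63 SE (adjusted p = 0.0357). With Anxa5 these were the called members of 23 annexins, galectins and S100 proteins. All tumours lay above all controls in 9 of the 23 and below them in 0, against 5.3% and 6.11% of all genes tested. The list median was 0.82. Cd68, a lysosomal protein of macrophages, rose by 1.94 ± 0.29 SE (adjusted p = 0.00782) and was the other called macrophage marker beside Lgals3, of 25 tested. The summed signal of those 25 markers was 4366 to 4819 in the controls and 4684 to 20549 in the tumours, and their median log2 level against the controls was 1.86 in tumour 5-1 and -0.32 in tumour 4. The part of macrophage content in the rises of Cd68 and Lgals3 was not tested.

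Genes of the basement membrane and matrix followed. Col4a1, a collagen of basement membranes, rose by 2.88 ± 0.56 SE (limma, adjusted p = 0.0324), from 42.9 to 90.6 in the controls to 138 to 1670 (tumour 5-1) in the tumours. Nid1, nidogen, which links collagen IV to laminin, rose by 2.82 ± 0.48 SE (adjusted p = 0.0215). Tinag, another basement membrane protein, was dim in the controls (5.2, 1.0 and 8.5) and reached 43.3 to 300.1 in the tumours (3.13 ± 0.51 SE, adjusted p = 0.0162). Col1a1, a fibrillar collagen, rose by 2.61 ± 0.50 SE (adjusted p = 0.0317), highest in tumours 5-1 (291) and 5-2 (165). These were the called members of 38 matrix genes. In 9 of the 38 all tumours lay above all controls and in 0 below, against 5.3% and 6.11% of all genes tested. The median was 0.69, with 1.55 in tumour 5-1 and 1.35 in tumour 5-2 but -0.02 in tumour 4. Of 16 stellate cell and myofibroblast markers 0 were called by limma, with 3 higher and 2 lower at an unadjusted p under 0.05 and a median of -0.27, which was -0.04 without tumour 4. By tumour their median was -0.52 in tumour 4 and 0.04 to 0.27 in the other 5. Cav1, caveolin, a coat protein of membrane pits, rose by 3.02 ± 0.60 SE (adjusted p = 0.0327), to 1884 in tumour 3.

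Cell division genes were among the shared rises. Ccnb2, a mitotic cyclin, had signals of 5.7 to 7.9 in the controls, where it was dim, and 44.6 to 130.3 in the tumours, a log2 change of 2.52 ± 0.32 SE (limma, adjusted p = 0.00459). Mcm6, a subunit of the replicative helicase, rose by 2.89 ± 0.42 SE (adjusted p = 0.00756), with 1.27 at its other probe set. Stmn1, stathmin, which destabilises microtubules (1.92 ± 0.35 SE), Mcm7, another helicase subunit (1.10 ± 0.23 SE), and Cdca3, a mitotic entry factor (1.65 ± 0.36 SE), were the other called members of 36 genes of S phase and mitosis. That is 5 called higher and 0 lower. In 18 of the 36 all tumours lay above all controls and in 0 below, against 5.3% and 6.11% of all genes tested. The list median was 1.02. By tumour the median was highest in tumours 4 (1.57) and 5-1 (1.496) and lowest in tumour 6-1 (0.49). Some brakes on division rose too. Cdkn2c, an inhibitor of CDK4 and CDK6, had signals of 16.3, 40.9 and 65.4 in the controls and 238 to 302 in the tumours (2.57 ± 0.29 SE, adjusted p = 0.00332). Cdkn1a, which encodes p21 (2.56 ± 0.49 SE), and Gadd45b, a stress-induced growth arrest gene (2.65 ± 0.41 SE, with -0.42 and 1.98 at other probe sets), completed the 3 called of 19 genes of cyclin D1, CDK inhibitors and p53 targets. Ccnd1, cyclin D1, was not called: 5 tumours had signals of 631 to 1702 against 248 to 317 in the controls, and tumour 5-1 had 162.

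Tubulins, drug transporters and glutathione enzymes were also among the shared rises. Tubb2a, a beta-tubulin, rose by 3.35 ± 0.49 SE (limma, adjusted p = 0.00756), with 0.67 at another probe set, and Tubb6 rose by 2.72 ± 0.51 SE (adjusted p = 0.0312). Mapt, the microtubule protein tau, was the other called gene of 25 tubulins, keratins and junction proteins (1.94 ± 0.39 SE, adjusted p = 0.0349). Abcb1a, a multidrug efflux pump of the same family as Abcb4, had signals of 17.0 to 30.8 in the controls and 103 to 319 in the tumours (2.70 ± 0.38 SE, adjusted p = 0.00737) and was the only called gene of 19 in bile acid synthesis and transport, whose median was -0.63 (-0.35 without tumour 5-1) and ran by tumour from -1.39 in tumour 5-1 to -0.15 in tumour 4. Gstm3, a glutathione S-transferase (2.19 ± 0.42 SE), Srxn1, sulfiredoxin, which repairs oxidised peroxiredoxins (1.83 ± 0.33 SE, with -0.05 at 1 of its other probe sets), and Gsta2 (1.07 ± 0.21 SE) were called among 29 glutathione and NRF2 target genes, with 0 called lower and a median of 0.49. Tgfbr2, a TGF-beta receptor, rose by 1.88 ± 0.36 SE (adjusted p = 0.0317). Rtn4, the reticulon Nogo, which is also higher in female liver, rose by 1.98 ± 0.40 SE (adjusted p = 0.0349).

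The largest fall was in Hsd3b5, a steroid dehydrogenase of male mouse liver. Its signals were 2916, 2569 and 2798 in the controls. In 4 tumours they were 2.2 to 4.7, in tumour 4 they were 48.3 and in tumour 6-1 they were 281. The log2 change was -6.69 ± 0.95 SE (limma, adjusted p = 0.00737). The non-tumorous livers had 3.2 to 286, the same low range. Susd4, a complement regulator that is also higher in male liver, fell from 99.8 to 155 in the controls to 1.3 to 8.6 in 5 tumours and 34.7 in tumour 6-1 (-2.998 ± 0.45 SE, adjusted p = 0.00886). They were the called members of 12 genes higher in male mouse liver, with 0 called higher. In 8 of the 12 all tumours lay below all controls, against 6.11% of all genes tested, and the median was -1.95. By tumour it was -3.23 in tumour 5-1, -2.66 in tumour 3, -2.27 in tumour 5-2 and -1.61 in tumour 6-2, but -0.66 and -0.67 in tumours 4 and 6-1. Of 10 genes higher in female liver, Rtn4 was called higher and Cyp2b9 lower. Their median was 0.41 (0.20 without control 2, 0.64 without tumour 5-1), with -0.58 and -0.46 in tumours 5-1 and 5-2 and 0.44 to 0.91 in the other 4. Eif2s3y, a Y-linked gene, had signals of 61.2 to 143 in the tumours and 73.0 to 131 in the controls.

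Slc22a7 and Ces1e had the next largest falls among the named genes. Slc22a7, the organic anion transporter OAT2, fell from 1088 to 1206 in the controls to 5.3 (tumour 4) to 289 (tumour 6-1), a log2 change of -4.06 ± 0.70 SE (limma, adjusted p = 0.0219). Ces1e, a carboxylesterase, fell by 3.96 on the log2 scale (± 0.58 SE, adjusted p = 0.00782), from 1991 to 2773 in the controls to 32.7 (tumour 5-1) to 417 (tumour 6-1). Cyp2b9, a cytochrome P450, fell by 1.93 ± 0.39 SE (adjusted p = 0.0349). Ces1e and Cyp2b9 were the called members of 27 genes of P450s and phase 1 metabolism, with 0 called higher. All tumours lay below all controls in 10 of the 27 and above them in 0, against 6.11% and 5.3% of all genes tested. The median was -0.80, but by tumour it ran from -2.58 in tumour 5-1 to -0.29 in tumour 6-1. Upp2, a liver uridine phosphorylase (-2.13 ± 0.33 SE), Sult5a1, a sulfotransferase (-1.91 ± 0.26 SE), and Ppp1r3c, which targets protein phosphatase 1 to glycogen (-1.90 ± 0.33 SE), fell as well. So did Macrod1, an ADP-ribose hydrolase (-1.64 ± 0.21 SE, adjusted p = 0.00459), and Slc38a3, a glutamine transporter of periportal hepatocytes (-1.30 ± 0.25 SE, adjusted p = 0.0317).

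Signalling genes that fell included Lifr, the receptor for leukaemia inhibitory factor (-2.004 ± 0.38 SE, limma, adjusted p = 0.0312), although its other probe sets gave -0.32 and -0.44. Inhbc, an activin subunit made by the liver, fell by 1.61 ± 0.28 SE (adjusted p = 0.0219). It and Tgfbr2 were the called genes of 36 in IGF, BMP and TGF-beta signalling. The list was split, with 17 changes positive and 19 negative and a median of -0.18 (-0.03 without tumour 4). By tumour the median ran from -0.78 in tumour 4 to 0.46 in tumour 5-1. In 10 of the 36 all tumours lay below all controls and in 1 above, against 6.11% and 5.3% of all genes tested. Among those 10 were Igf1 (736 to 1708 in the tumours, 2364 to 2833 in the controls, adjusted p = 0.0902) and Id1, a BMP-induced inhibitor of transcription factors (45.0 to 157 against 225 to 281, adjusted p = 0.0846). Atoh8, a basic helix-loop-helix transcription factor, was 42.8, 50.2 and 50.3 in the controls and 2.2 to 6.6 in the tumours, where it was dim (-2.06 ± 0.37 SE, adjusted p = 0.0276). The non-tumorous livers ranged from 5.1 to 120.3, with 4 of 6 above every control. Nat8f1, an acetyltransferase of the endoplasmic reticulum, was 381 to 1096 in the tumours, 1980 to 2556 in the controls and 1128 to 1830 in the non-tumorous livers (-1.97 ± 0.29 SE, adjusted p = 0.00782). Cort, the neuropeptide cortistatin, was dim in the tumours (-1.75 ± 0.33 SE, adjusted p = 0.0312).

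Genes of the hepatocyte zones lay at different levels across tumours. Of 26 periportal nitrogen and amino acid enzymes 1 was called lower, Slc38a3, and 0 higher. Of all genes tested 0.354% were called lower and 0.928% higher. In 11 of the 26 all tumours lay below all controls, against 6.11% of all genes tested. Arg1, arginase of the urea cycle, had signals of 1519 to 6111 against 7429 to 8193 in the controls (-1.36 ± 0.37 SE, adjusted p = 0.100). Agxt, which removes glyoxylate, ranged from 7.0 in tumour 4 to 802 in tumour 3 against 1848 to 2070 (-3.56 ± 0.97 SE, adjusted p = 0.102), so the large change came with a large error. The list median was -0.78. Of 20 pericentral beta-catenin targets Cnmd, chondromodulin, fell (-2.90 ± 0.49 SE, adjusted p = 0.0214) and Gstm3 rose. The median was -0.93 over all tumours but 0.10 in tumour 4, against -1.90 in tumour 3 and -2.15 in tumour 5-1. Cyp2e1, a pericentral P450, had signals of 846 and 812 in tumours 3 and 5-1, 10010.3 in tumour 4 and 10912 to 13154 in the controls.

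General hepatocyte genes moved less. Of 28 plasma proteins and liver transcription factors 0 were called by limma in either direction, with 9 lower at an unadjusted p under 0.05. Even so, in 11 of the 28 all tumours lay below all controls, against 6.11% of all genes tested. Of the 28 changes 24 were negative, and the median was -0.37 (-0.13 with quantile normalization). By tumour the median stayed between -0.29 and -0.45. Apoa2, apolipoprotein A2, was at -0.47 ± 0.21 SE (adjusted p = 0.301), and with quantile normalization the log2 change of Apoa2 was 0.0028. Of 24 genes of fatty acid oxidation 0 were called by limma, with 7 lower at an unadjusted p under 0.05 (median -0.38), and Acaa1b, a peroxisomal thiolase, was at -0.57 ± 0.49 SE (adjusted p = 0.612). Limma also called 0 of 26 growth factor receptors and AP-1 genes, with 5 higher and 2 lower at an unadjusted p under 0.05 (median 0.06, turning to -0.0085 without tumour 5-1 and 0.25 without tumour 4). Jun, an immediate early gene, had signals of 72.2 to 812 (tumour 4) against 10.2 to 35.0 (2.79 ± 0.63 SE, adjusted p = 0.0579). Over all genes, 1551 had an unadjusted p under 0.05.

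Limma called 0 of the markers of other cell types described next, where 1.28% of all genes tested were called. At that share, lists of this length would hold few calls or none. Of 24 endothelial markers (median -0.02, sums 1372 to 3228 in the tumours and 2261 to 2855 in the controls), 15 bile duct markers (0.15, sums 4683 to 11894 and 2638 to 3895), 10 T and NK cell markers (0.03, sums 162 to 410 and 229 to 315), 7 B and plasma cell markers (0.02, sums 2497 to 3716 and 2402 to 3165) and 7 markers of red cells and other tissues (-0.40, sums 166 to 274 and 246 to 412), limma called 0. At an unadjusted p under 0.05 these lists had 5 genes higher and 1 lower, 5 and 1, 0 and 0, 0 and 1, and 0 and 2. In the same order, all tumours lay above all controls in 3, 4, 0, 0 and 0 genes and below them in 1, 0, 1, 0 and 2. Over all genes tested these shares were 5.3% and 6.11%. Leaving out 1 sample at a time moved the bile duct median to between 0.10 (without tumour 5-2) and 0.62 (without control 1) and the red cell median to -0.22 (without tumour 4). It gave the endothelial, T and NK cell and B and plasma cell medians either sign, with ranges of -0.06 to 0.18, -0.16 to 0.24 and -0.20 to 0.11. The median of the endothelial list also turned to 0.01 with the larger constant, and those of the T and NK cell and B and plasma cell lists to -0.03 and -0.04 with arrays centred on their medians. Of the bile duct list, Krt18, a keratin that hepatocytes also express, had signals of 2166 to 5879 against 1204 to 1679 (1.16 ± 0.31 SE, adjusted p = 0.0952), and Krt19, the cholangiocyte keratin, had 10.1 to 36.2 against 29.1 to 51.4. Of 7 MHC class II genes 0 were called by limma, with 2 higher at an unadjusted p under 0.05 (median 0.57, but 0.32 without tumour 5-1 and 0.90 without control 1). By tumour their median was 2.16 in tumour 5-1 and -0.14 in tumour 4, and H2-Aa ranged from 278 to 3651 in the tumours (1.41 ± 0.62 SE, adjusted p = 0.288). The brightest genes of the other lists without a call were Reln (-0.81), Fcgr2b (-0.23), Klrk1 (-0.58), Xbp1 (0.02), Alas2 (-0.24), Erbb3 (-0.68) and Hmgcs1 (0.69), none of which was called.

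**Figure D3:**
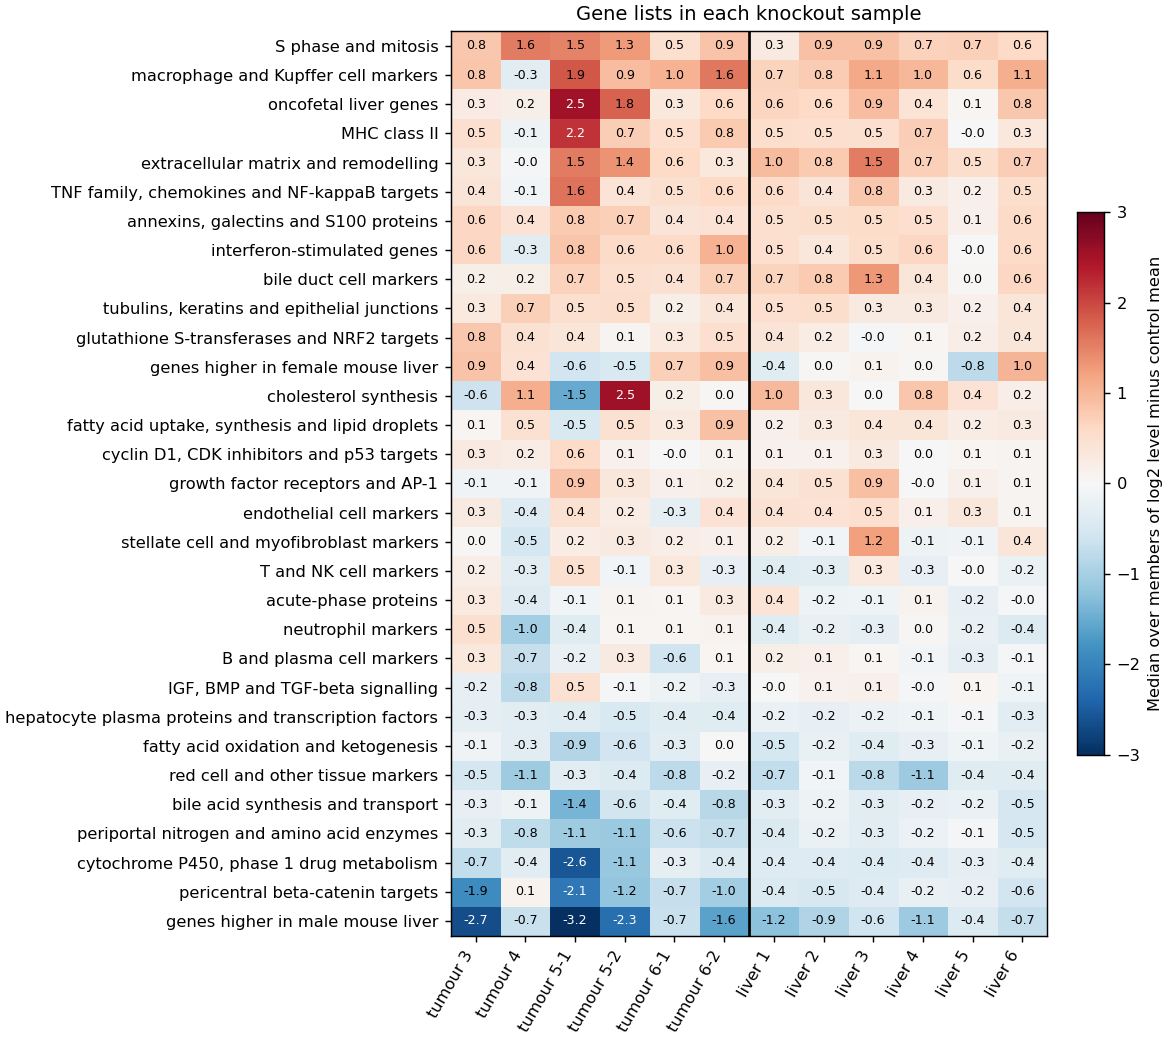
Median over the members of each of 31 gene lists (rows) of the log2 level minus the mean of the 3 controls, for the 6 tumours and the 6 non-tumorous knockout livers (columns), with red above and blue below the controls. The livers share these controls. Cholesterol synthesis runs from -1.501 in tumour 5-1 to 2.53 in tumour 5-2, and genes higher in male liver are below the controls in every tumour.

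The list medians by sample show where the tumours parted from each other. Cholesterol synthesis had the widest range: the median of 19 genes was 2.53 in tumour 5-2 and 1.10 in tumour 4, 0.17 and 0.04 in tumours 6-1 and 6-2, and -0.63 and -1.501 in tumours 3 and 5-1. Tumours 5-1 and 5-2 of the same mouse stood at opposite ends. Of 24 oncofetal genes, which are expressed in fetal liver or in liver tumours, Ly6d and Lpl were called higher and 0 lower (median 1.29). Their medians were highest in tumours 5-1 and 5-2, at 2.53 and 1.77, against 0.18 to 0.60 in the other 4. Afp, alpha-fetoprotein, had signals of 1558 in tumour 5-1 and 1206 in tumour 5-2, at most 34.2 in the others and at most 1.0 in the controls. Gpc3, glypican 3, reached 1914 in tumour 5-1 and at most 31.4 in the others. Igf2, a fetal growth factor, reached 3043 in tumour 5-1 against 10.3 to 34.0 in the others and 11.7 to 79.1 in the controls. Afp, Gpc3 and Igf2 were picked for this description after their values were seen.

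Genes displaced in 2 or 3 tumours only numbered 133 higher (1.39% of genes tested) and 104 lower (1.08%). In such a gene 2 or 3 tumours lay at least 1 log2 unit beyond the nearest control and every other tumour less than 0.5 beyond it. Of the higher genes 94 were displaced in 2 tumours and 39 in 3, and of the lower genes 75 and 29. Some were shared at the same time, since the other tumours could lie just beyond the controls: 11 of the higher and 12 of the lower. Limma called 0 of the 237, and 50 had an unadjusted p under 0.05. The values that chose these genes are given as a description. The counts move with the margin: 677 and 576 genes met a margin of 0.6, and 26 and 21 a margin of 1.5.

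**Figure D4:**
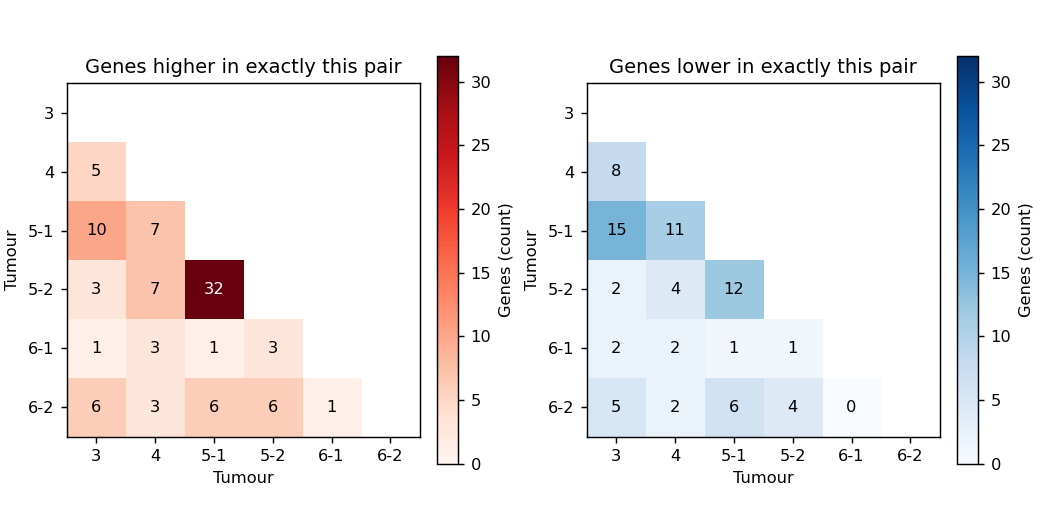
Number of genes displaced in exactly the pair of tumours at each crossing and in no other, for genes higher (left, red) and lower (right, blue) than the controls. The pair 5-1 and 5-2, from a single mouse, has the highest count on the left, 32, while 6-1 and 6-2, also from a single mouse, has 1 on the left and 0 on the right.

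The pairs were uneven. Tumours 5-1 and 5-2, of mouse 5, shared 32 of the 94 genes higher in a pair, and tumours 6-1 and 6-2, of mouse 6, shared 1, Khk, the fructose kinase. Tumours 3 and 5-1, of different mice, shared the most genes lower in a pair, 15 of 75, followed by 5-1 and 5-2 with 12 and 4 and 5-1 with 11. Tumour 5-1 took part in 79 of the 133 higher and 68 of the 104 lower genes displaced in 2 or 3 tumours. Tumour 6-1 took part in 16 and 11. The part of this unevenness in the pair counts was not tested. Over all genes the median difference between 2 tumours was 0.42 log2 units for 5-1 and 5-2 and 0.34 for 6-1 and 6-2. For tumours of different mice it was 0.34 (5-2 and 6-1) to 0.54 (3 and 5-1). The profile nearest to 5-1 was that of 5-2, and the profile nearest to 6-2 was that of 6-1, each from the same mouse. Tumours 5-2 and 6-1 were nearest to each other, at 0.338. That compares with 0.421 for 5-1 and 5-2 and 0.342 for 6-1 and 6-2.

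Of the 32 genes higher in tumours 5-1 and 5-2 alone, Mgp and Enah had the largest displacements. Mgp, matrix Gla protein, an inhibitor of calcification, had signals of 1153 and 581 there, at most 104 in the other tumours and 37.9 to 83.7 in the controls. Enah, an actin regulator of the Ena/VASP family, had 385 and 378 there, at most 21.0 in the other tumours and at most 28.1 in the controls. Col3a1, a fibrillar collagen (1269 and 1338, others 348 to 513, controls 241 to 393), Col1a2 and Tgfb2, a TGF-beta ligand (211 and 118, others 10.9 to 21.3, controls 1.6 to 30.6), had the same pattern. In the same pair Leap2, a liver-secreted peptide that blocks the ghrelin receptor, was low at 32.2 and 109 against 749 to 1331 in the other tumours and 905 to 1026 in the controls. Hsd17b6, a hydroxysteroid dehydrogenase, was low at 137 and 208, with 974 to 4100 in the others and 1313 to 1928 in the controls. Igfbp2, an IGF-binding protein, was low at 226 and 177, with 1125 to 1920.1 in the others. Bex1, a neuronal adaptor protein, was high in tumour 4 (103) as well as in 5-1 (3470.4) and 5-2 (376), with at most 21.9 in the others and 21.0 in the controls. Col3a1, Col1a2, Tgfb2 and the genes of other sets below that are outside the plot of partial genes were picked after their values were seen.

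**Figure D5:**
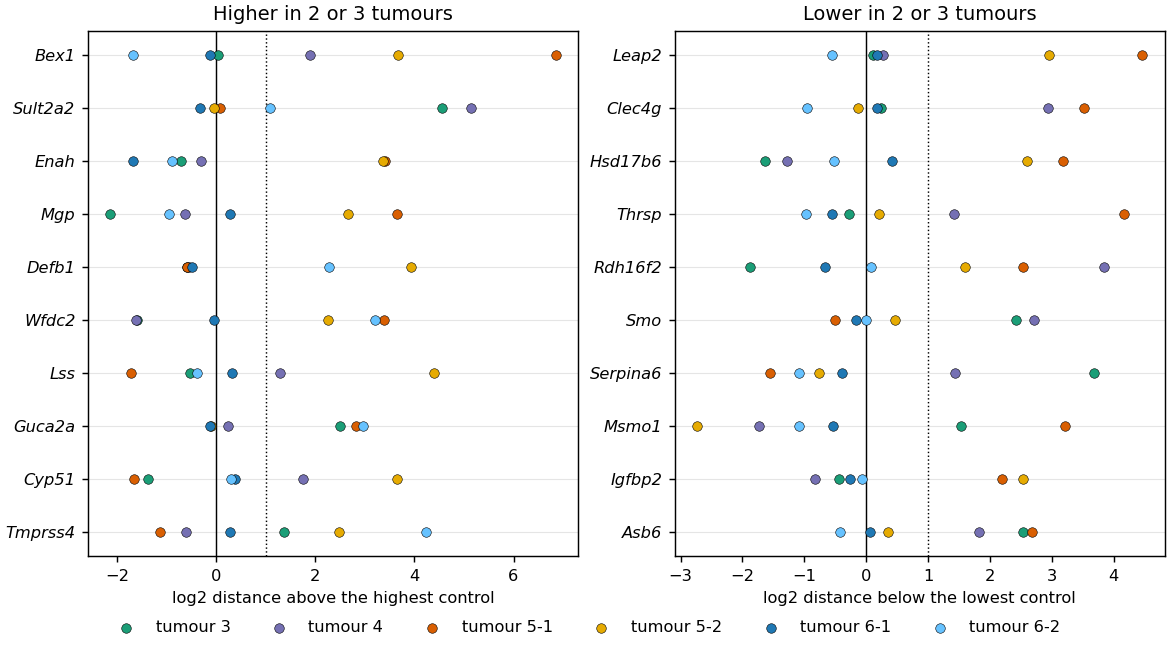
Distance in log2 units of each tumour beyond the nearest control (horizontal axis) for the 10 genes with the largest mean displacement above the controls (left) and below them (right) in 2 or 3 tumours only. Each circle is 1 tumour, the solid line marks the nearest control and the dotted line the margin of 1. Bex1 in tumour 5-1 and Leap2 in tumour 5-1 lie farthest out, and the gap between the displaced circles and the rest comes from the rule that chose the genes.

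Of the 7 genes higher in tumours 4 and 5-2 alone, 4 belonged to the cholesterol synthesis list, and the others were B3galnt1, Pfkp and Rdh11. Lss, lanosterol synthase, had signals of 566 in tumour 4 and 4943 in tumour 5-2, 62.1 to 284 in the other tumours and 128 to 226 in the controls, but its other probe sets gave 0.07 and -0.11 over all tumours. Cyp51, lanosterol demethylase, had 1269 and 4711, with 111 to 483 in the others and 295 to 369 in the controls. Dhcr7, the last enzyme of the pathway (979 and 2262, controls 384 to 432), and Mvd, mevalonate decarboxylase (273 and 759.5, controls 84.5 to 115), belonged to the same pair, and Fdps, farnesyl diphosphate synthase, to these tumours with 6-2. Other sterol genes were low in tumours 3 and 5-1: Msmo1, a sterol oxidase, had 288 and 84.4 against 857 to 1156 in the controls, and reached 2863 in tumour 4 and 5741 in tumour 5-2. Of 19 cholesterol synthesis genes, 5 were displaced upward and 2 downward in this partial way, and limma called 0, with 1 lower at an unadjusted p under 0.05 and a median of 0.31 over the 6 tumours. That median was -0.16 without tumour 5-2, 0.11 without tumour 4 and 0.72 without tumour 5-1. Glul, glutamine synthetase of the pericentral zone, was low in tumours 3 (136) and 5-1 (145), with 513 to 1299 in the others and 687 to 1441 in the controls. The desaturases Fads1 and Fads2 belonged to the same pair.

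Other sets touched secreted and surface proteins. Wfdc2, a whey acidic protein family member of epithelia, was high in tumours 5-1 (463), 5-2 (206) and 6-2 (408), with at most 34.6 in the others and 36.0 in the controls. Defb1, an antimicrobial defensin, was high in tumours 5-2 (766) and 6-2 (239), with 24.6 to 27.1 in the others. Tmprss4, a membrane serine protease, was high in tumours 3 (54.1), 5-2 (128) and 6-2 (453), and Guca2a, guanylin, an intestinal peptide, in tumours 3 (60.5), 5-1 (77.7) and 6-2 (87.7), against at most 3.2 in the controls. Saa2, an acute-phase protein, belonged to tumours 3 (1243), 5-2 (457) and 6-2 (1214), with 75.9 to 180.2 in the others and 115 to 141 in the controls. Sult2a2, a hydroxysteroid sulfotransferase of female liver, was high in tumours 3 (529.6) and 4 (799) and weakly in 6-2 (39.5), against at most 13.7 in the controls. Serpina6, corticosteroid-binding globulin, was low in tumours 3 (168) and 4 (824), against 2254 to 3473 in the controls and up to 6638 in tumour 5-1. Smo, the Hedgehog signal transducer, was low in the same pair (3.4 and 1.1, controls 58.4 to 80.6), with -0.51 at its other probe set over all tumours. Thrsp, a regulator of lipogenesis, was low in tumours 4 (1451) and 5-1 (208), against 3890 to 6172 in the controls. Its other probe set gave -0.72 over all tumours. Rdh16f2, a retinol dehydrogenase family member, was low in tumours 4, 5-1 and 5-2 (3.5, 22.4 and 51.4, controls 174 to 385). Asb6, an adaptor of a ubiquitin ligase, was low in tumours 3, 4 and 5-1 (7.4, 17.9 and 5.9, controls 87.1 to 169), with -0.40 at its other probe set over all tumours.

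The sinusoidal cell markers Clec4g, Vsig4 and Clec4f were low in tumours 4 and 5-1, and Vsig4 and Clec4f were picked after their values were seen. Clec4g, a lectin of sinusoidal endothelium, had signals of 24.9 in tumour 4 and 13.6 in tumour 5-1, 213 to 502 in the other tumours and 254 to 451 in the controls. Vsig4, a complement receptor of Kupffer cells, had 63.3 and 41.8 in the same tumours against 284 to 355 in the controls. Clec4f, the Kupffer cell lectin, had 36.7 and 28.4 against 341 to 431. The macrophage list as a whole had a median of -0.32 in tumour 4 and 1.86 in tumour 5-1, and the endothelial list -0.38 and 0.45. In tumour 5-1 these markers went against the medians of their lists, but both lists were split there. Of the 25 macrophage markers 17 lay above all controls and 7 below. Of the 24 endothelial markers 13 lay above and 10 below. Fcgr2b, an Fc receptor of sinusoidal endothelium, was among those above, at 776.8 against 264 to 357. Cd74, the MHC class II chaperone, was high in tumours 5-1 (3774), 5-2 (1188) and 6-2 (935), against 319 to 382 in the controls. The part of cell composition in these partial genes was not tested.

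The share of partial genes differed between chromosomes. Chromosome 8 held 14 of the 104 genes lower in 2 or 3 tumours (13.5%), against 5.33% of all genes tested. Tumour 5-1 was among the displaced tumours for 13 of the 14 (68 of all 104) and tumour 3 for 10 (48 of all 104). Among the 14 were Fkbp8, Tenm3, Nr2f6, Rhou and Msmo1 in tumours 3 and 5-1, and Tecr, Ranbp10 and Hsd17b2 in these tumours with 6-2. Chromosome 6 held 16 of the 133 higher genes and 11 of the 104 lower (10.6%), against 5.49% of all genes tested. Of the 16, 10 were in tumour 5-1 and 10 in tumour 5-2. These tumours took part in 79 and 77 of all 133, so the counts on chromosome 6 were near their share. Chromosome 18 held 6 of the 133 higher genes (4.51% against 2.37%), of which Crem, Tmed7, Eif1a and Atg12 were high in tumours 3 and 4. These chromosomes were picked for description after the counts were seen, and no test was run on them.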

How the data were processed

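RNA of 6 tumours and 3 heterozygous livers was compared. The deposited values are signals of intensity per probe set on a linear scale, made with MAS5 per the submitters' processing notes; its version, settings and detection calls are not given in the sources used here. Trimmed means, with 2% left out at each end, were 150.1 on each array, so arrays were compared as deposited. Of 22690 probe sets, 64 were controls, and the platform annotation gave 1 gene for 20393, several for 691 and none for 1606; a RefSeq table (GRCm38.p6) held the gene of 20364 and changed 0 symbols.

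Signals were transformed to log2(signal + 9.16), the constant being the 20th percentile of the 9 arrays. Probe sets above the 40th percentile of their array in at least 2 of 9 arrays were kept (16219, of which 14872 had 1 gene), and the brightest stood for each of 9593 genes. The 9 arrays were fitted alone with limma 3.58.1 (lmFit, eBayes with trend, R 4.3.3, statmod 1.5.0). The mouse was a random block through duplicateCorrelation (correlation 0.21), since mice 5 and 6 gave 2 tumours each by the labels, so the fitted change weights their tumours slightly less. Control and knockout mouse numbers are not shared animals. P-values were adjusted by Benjamini-Hochberg over all 9593 genes. At most 122 signals were equal between any 2 arrays.

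Named were Abcb4, the 14 largest called rises and falls among shared genes, the 10 highest and 10 lowest partial genes by mean displacement, and up to 2 called rises and 2 called falls of each of 31 lists, or the brightest member, without clone names; genes outside this rule were picked after their values were seen. The comparison, its lists and its members were chosen with earlier results of these data known. Lists were described by counts and medians, with no test. On simulated data with 100 genes planted at each size, the fit of tumours against heterozygous livers recovered 30% of changes of log2 1 and 79% of log2 2, with 7 false calls. The simulated arrays were independent, with 1 SD per gene for both groups. The real arrays had a mouse correlation of 0.21 and median SDs of 0.43 in the tumours and 0.25 in the controls. The simulated figures may therefore not hold for them. The number of arrays limits the precision. Figures were drawn with matplotlib 3.10.9.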

Additional observations from a re-analysis of the deposited data

Results flagged for a closer look

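Of the 74 named genes, 3 had 1 tumour far from the other 5, measured by its gap to the nearest of them against the range of the group; chance alone would mark about 1 group in 20. Susd4 had a signal of 34.7 in tumour 6-1 and 1.3 to 8.6 in the other tumours, all below the controls. Erbb3, a growth factor receptor of the epidermal growth factor family, had 417.3 in tumour 3 and 581 to 707 in the others. Cort had 7.6 in tumour 4 and up to 12.5 in the others, all of them dim.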

How the results depend on the processing

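Calls rest on 3 controls. Leaving out 1 sample at a time gave 11 to 169 called genes (11 to 113 higher and 0 to 58 lower), and without controls 1, 2 and 3 there were 17, 21 and 11. Without tumour 6-2, 58 genes were called higher, and without tumours 5-1 and 6-1, 53 and 58 lower. Called in each of these fits were 9 genes: Anxa5, Casp12, Ccnb2, Cd36, Cdkn2c, Ifi27l2b, Ly6d, Pvr and Usp18. Shared genes numbered 572 to 766 higher and 655 to 902 lower when 1 sample was left out, since fewer samples must be separated.

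With no replicate block for the mouse limma called 163 genes, 117 higher and 46 lower. With 1 value per mouse it called 237 (144 and 93), with 795 shared genes higher and 1009 lower. With all 15 arrays in the fit it called 657 (377 and 280), and without the trend 47 (29 and 18); the cause was not tested. With the actin ratio as a covariate it called 0 genes, 0 higher and 0 lower, with 435 at an unadjusted p under 0.05, and the log2 change of Acaa1b was 1.2909 and the log2 change of H2-Aa -2.0665.

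Partial genes numbered 76 higher and 62 lower with the larger constant (29.2, the 40th percentile), 677 and 576 with a margin of 0.6 and 26 and 21 with a margin of 1.5. With a margin of 1 in every tumour, shared genes numbered 34 and 14. The log2 change of Apoa2 was 0.0028 with quantile normalization. The log2 change of Xbp1, near 0 throughout, was -0.0318 with centred arrays, -0.0780 with the mean of probe sets and -0.1109 to 0.1054 with 1 sample left out; the log2 change of Fcgr2b was -0.5114 to 0.2419. With quantile normalization, centred arrays, either filter, the other constants and the mean of probe sets, counts of called genes stayed within 1.5 times those reported. A signal near background limits the precision of dim genes.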
